A study of Oryza sativa Indica Group and Oryza sativa Japonica Group with 8 samples.

Results

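The panicles compared here came from 2 tms5 lines and 2 wild types of rice, all grown at a day average of 28 °C, the restrictive temperature of the study. They gave 4 of the 8 arrays of the series, chosen by their labels as the high temperature arrays. In the indica background AnS-1, a thermosensitive genic male sterile mutant, stood against AnN, the wild type. In the japonica background Os02g12290iL1, a single line in which RNA interference knocks down Os02g12290, stood against ZH11, the wild type. The series also holds the same 4 lines at 23 °C, the permissive temperature. The young panicles were at stages from the microspore mother cell up to meiosis, and their total RNA was hybridised to Affymetrix rice arrays of 57258 probe sets. Each line gave 1 array at each temperature, so a group held 2 arrays, 1 from each background. This small number sets the precision of every value. Whether plants were pooled is not stated, and the p-values rest on the spread among these arrays alone.

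Thermosensitive genic male sterile rice makes fertile pollen when cool and sterile pollen when warm, which lets breeders keep a line by selfing in one season and use it as the female parent of hybrids in another. The tms5 locus encodes RNase ZS1, an enzyme of the RNase Z family, whose classical task is to trim the 3' ends of transfer RNA precursors. The study asked whether this enzyme also acts in the metabolism of messenger RNA. The gene it targeted, Os02g12290, was not analysed here, so the labels of the tms5 lines have no check of their own on these arrays. Anthers at this stage hold the meiocytes and the tapetum, the layer that feeds them and supplies the pollen wall.

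The labelled tissue was checked against marker genes. All 10 floral organ identity probe sets of the MADS family lay above the control level in all 4 panicles, where the control level of an array is the 95th percentile of its probe sets for foreign reporter genes (107.5 to 119 in normalized intensity). Of 8 meiocyte probe sets 7 did so, of 11 tapetum and pollen wall probe sets 10, and of 13 green tissue probe sets 10. Of all 34317 tested probe sets, which had passed a filter on mean intensity, 22964 did so. Most of these markers were thus detected in every line, but the counts cannot tell the labelled organ from other tissue. The first principal component of the 4 arrays held 89.9% of the variance and separated indica from japonica, which is why each tms5 line was set against the wild type of its own background. Median deposited intensities were 139 in AnS-1 and 115 in Os02g12290iL1, against 141.1 in AnN and 109 in ZH11, and all intensities below were quantile normalized. Among 64 reporter controls, 2 lay at 2836 and 3222 in Os02g12290iL1 at 28 °C, and between 18.5 and 76.1 in the panicles of the other lines.

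At 28 °C the tms5 panicles differed from the wild types mainly through transcripts that were lower. Of 34317 probe sets tested, 135 (0.393%) were called with limma at an adjusted p under 0.05, on the 4 arrays with background as a block. Of these, 132 were lower in tms5 (0.385% of those tested) and 3 higher (0.00874%). The fit to all 8 arrays with the same block called 0, with a smallest adjusted p of 1 and 405 probe sets at an unadjusted p under 0.05. On the 4 arrays 2021 probe sets had such an unadjusted p, where 1716 would be expected by chance. The fit to 4 arrays leaves 1 residual degree of freedom a probe set, so each call leans on the spread shared over probe sets. In what follows, "fell" and "rose" stand for a call in that fit, and a difference is tms5 minus wild type in log2(intensity + 16). A lower value in a whole panicle can mean fewer cells of a type or less RNA per cell, which cannot be told apart in bulk tissue.

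The 132 probe sets that fell were lower in both backgrounds, 131 of them by at least 2-fold in each. Their median difference was -2.05 in indica and -2.13 in japonica, against 0.04 and 0.01 over all tested probe sets. Their median intensity was 121 in AnS-1 and 125 in Os02g12290iL1, against 761 in AnN and 719.9 in ZH11. Placed among all tested probe sets, these medians stood at percentile 24.9 in AnS-1 and 24.1 in Os02g12290iL1, against 74.3 in AnN and 73.0 in ZH11. The choice of lower probe sets above a mean level favours such an order. In 45 of the 132 both tms5 lines were at or under the control level, against 4684 of all 34317 tested probe sets. In 39 of the 45 both wild types were above it. Both tms5 intensities lay below both wild type intensities for 124 of the 132, against 4.80% of all tested probe sets. The selection for lower values bears on that count.

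**Figure D1:**
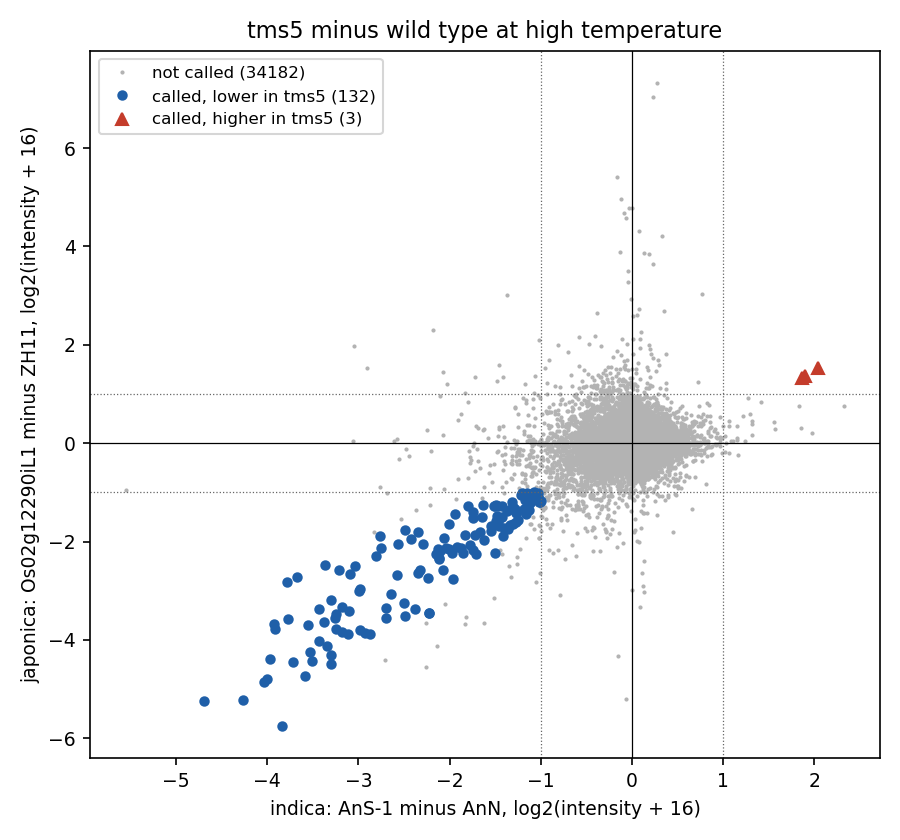
Differences of 34317 tested probe sets at high temperature, as log2(intensity + 16), with AnS-1 minus AnN on the x axis and Os02g12290iL1 minus ZH11 on the y axis. Blue points are the 132 probe sets called lower in tms5, red triangles the 3 called higher, grey points were not called, and dotted lines mark a 2-fold difference; the called points run along the diagonal to the lower left, and the grey points far above 0 on the y axis lie close to 0 on the x axis.

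A count without a test gave the same picture of direction. At least 2-fold lower in both backgrounds were 167 probe sets (0.487% of those tested), and at least 2-fold higher in both were 3 (0.00874%). Of the 167, 36 were not called, with adjusted p between 0.0528 and 0.352 (limma). Within a background, AnS-1 had 339 probe sets lower and 29 higher than AnN by at least 2-fold, and Os02g12290iL1 had 355 lower and 201 higher than ZH11. The 167 shared lower probe sets were 49.3% of the indica list and 47.0% of the japonica list. On the higher side, the 3 shared probe sets were 10.3% of the indica list and 1.49% of the japonica list, and 185 of the 201 higher in Os02g12290iL1 were under 1.2-fold higher, or lower, in AnS-1. Across all tested probe sets the differences of the 2 backgrounds correlated with a Pearson r of 0.36 and a Spearman rho of 0.07, and 52.1% had the same sign. These correlations are across probe sets, which are not independent replicates and share arrays.

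Most of the genes that fell had no short name. Of the 132 probe sets, 83 were assigned to 1 gene, which gave 80 genes, and 69 of these genes carry only a LOC number in the reference gene table. Their 72 probe sets were 0.456% of the tested probe sets of genes with no short name. Genes with a short name gave 11 (0.411%), and the other 49 probe sets had no gene listed (0.309%). These shares lie near the 0.385% over all tested probe sets, and the differences between them were not tested. The annotation used here gives no function for the LOC genes, so none is stated.

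The largest joint fall among them belonged to LOC4336712. Its normalized intensity was 57.4 in AnS-1 and 47.8 in Os02g12290iL1, against 1880.3 in AnN and 2396 in ZH11. Both tms5 values lay under the control level, so the fall was at least 16.2-fold in indica and at least 20.1-fold in japonica (adjusted p = 0.00225, limma). Among all tested probe sets it stood at percentile 3.70 in AnS-1 and 1.06 in Os02g12290iL1, against 91.3 in AnN and 94.2 in ZH11. A transcript among the brighter ones of the array in the wild types was thus under the level of the controls in both tms5 lines.

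LOC4350077 followed the same pattern. It had 57.3 in AnS-1 and 44.3 in Os02g12290iL1, against 1395 in AnN and 2252 in ZH11 (adjusted p = 0.00626). LOC4346997 had the lowest intensity in Os02g12290iL1 among the 132 probe sets, with 31.0 in AnS-1 and 9.42 in Os02g12290iL1, against 753 in AnN and 721 in ZH11. For both genes the tms5 lines were under the control level, so their log2 differences of -4.27 and -5.23, and of -4.03 and -4.86, are of dim values. LOC4340560 (55.6 and 62.0 in AnS-1 and Os02g12290iL1, against 928 and 1687 in AnN and ZH11) and LOC107278020 (58.7 and 36.4, against 857 and 661) were likewise under the control level in both tms5 lines. In total this held for 10 of the 25 genes named here, against 4684 of all 34317 tested probe sets.

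Other genes fell from high levels and stayed measurable. LOC4331746 had 275 in AnS-1 and 189 in Os02g12290iL1, against 4535 in AnN and 4252 in ZH11, a fall of 15.7-fold and 20.9-fold (adjusted p = 0.00225). LOC4343572 was the brightest of the named genes in both wild types. Its intensity was 621 in AnS-1 and 315 in Os02g12290iL1, against 6253 in AnN and 7459 in ZH11, where it stood at percentiles 99.4 and 99.7. The fall was 9.84-fold in indica and 22.6-fold in japonica, with an adjusted p of 0.0161, and the call was lost with eBayes trend and robust (adjusted p = 0.470). LOC4348937 kept 591 in AnS-1 and 657 in Os02g12290iL1, against 5216 in AnN and 7141 in ZH11, the highest value in Os02g12290iL1 among the named LOC genes. LOC4328039 had 522 and 335 in the tms5 lines AnS-1 and Os02g12290iL1, against 4856 and 5015 in AnN and ZH11. LOC4325988 had 609 in AnS-1 and 409 in Os02g12290iL1, against 4042 in AnN and 4339.6 in ZH11. In these 5 genes each tms5 panicle was above the control level and far below both wild types.

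The fitted differences of the backgrounds lay close together for a few genes, whose sizes are bounds where a tms5 value was under the control level. LOC4331173 had 52.0 in AnS-1 and 54.5 in Os02g12290iL1, against 718.5 in both AnN and ZH11, so its differences were -3.43 and -3.38. Both tms5 values were under the control level, and the fall was at least 6.20-fold in indica and at least 6.03-fold in japonica. LOC4327696 had 94.9 in AnS-1, under the control level, and 125 in Os02g12290iL1, against 1662 in AnN and 1921 in ZH11, a fall of at least 14.3-fold in indica and of 13.7-fold in japonica. LOC4339758 had 33.1 in AnS-1 and 46.6 in Os02g12290iL1, against 468 in AnN and 558 in ZH11. With both tms5 values under the control level, the fall was at least 4.04-fold in indica and at least 4.68-fold in japonica (adjusted p = 0.00225). It was also the 1 gene that passed on all 8 arrays when each pair of background and temperature formed a block of its own, with an adjusted p of 0.0338. That fit called 3 probe sets in all (0.00874%), all lower in tms5, and the other 2 had no gene listed.

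Levels could differ between backgrounds in genes that fell in both. LOC4344609 had 64.3 in AnS-1 and 427 in Os02g12290iL1, against 1084 in AnN and 5244 in ZH11. The japonica values were several times the indica values in both genotypes, and the fall was at least 9.35-fold in indica, where AnS-1 was under the control level, and 11.9-fold in japonica (adjusted p = 0.00225). Of the 25 genes this was the 1 gene with wild types over 3-fold apart. Among the 132 probe sets 11 had wild types that far apart, and among all tested 9.17%.

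The differences of the other named LOC genes that fell ran between -4.0 and -2.50 in indica and between -4.81 and -2.58 in japonica. Some of these differences came from tms5 values under the control level, so their sizes are uncertain. They were LOC4336553, LOC4341486, LOC4349162, LOC4324244, LOC4351870, LOC4329864, LOC9266733, LOC4341720, LOC4334250, LOC9268583 and LOC4335322. LOC4336553, the largest fall in this group, had 193 in AnS-1 and 94.9, under the control level, in Os02g12290iL1, against 3332 in AnN and 3086 in ZH11. LOC4335322, the smallest, had 78.7 in AnS-1 and 103 in Os02g12290iL1, both under the control level, against 520.0 in AnN and 1108 in ZH11. The groups did not overlap for any of the 25 genes, which were picked for large differences, against 4.8% of all tested probe sets. Their adjusted p ran from 0.00225 to 0.0161. Os02g12290iL1 had a lower intensity than AnS-1 for 19 of the 25, against 88 of the 132 and 18816 of all 34317 tested probe sets. The remaining 44 LOC genes that fell had differences between -2.80 and -0.999 in indica and between -3.52 and -1.03 in japonica, with adjusted p between 0.00594 and 0.0479. With eBayes trend and robust LOC4341486, LOC4324244 and LOC4341720 lost their calls (adjusted p of 0.0561, 0.117 and 0.0865).

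Several probe sets of a gene did not always move together. Of the called genes 10 had more than 1 tested probe set, and all of them were called for LOC4351321 and LOC4333770, 2 genes chosen after their values were seen. For LOC4351321 the mean differences of its probe sets were -3.0 and -2.84. LOC4329864 was called by 2 of its 3 tested probe sets. One of these had 488 in AnS-1 and 326 in Os02g12290iL1, against 4342 in AnN and 5021 in ZH11. The probe set that was not called had 212 and 422 in AnS-1 and Os02g12290iL1, against 192 and 471 in AnN and ZH11. LOC9268583 was called by 1 of 3, with 121 in AnS-1 and 257 in Os02g12290iL1, against 1259 in AnN and 1609 in ZH11, and the differences of the other 2 lay between -0.39 and 0.66. LOC4324244 was called through a probe set of a type that can bind several transcripts, so its identity is uncertain. The called probe sets of LOC4349162 and of PTC1, a tapetum gene described below, were of such types too. So was the probe set of LOC4351321 with a mean of -3.0. Of the 132 called probe sets 15.2% were of such types, against 24.8% of all tested.

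The 80 genes that fell did not lie beside each other. By their order in the reference gene table, 0 pairs had 4 or fewer genes between them. The count was not made for other sets of 80 genes, so the 0 is not read as particular to these.

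Outside the tapetum and pollen wall list, 7 genes with a short name fell. NIP4-1 (LOC4326119), a member of the NIP class of aquaporins, had the largest fall in japonica of all called probe sets. Its intensity was 189 in AnS-1 and 43.7 in Os02g12290iL1, against 2923 in AnN and 3187 in ZH11, a fall of 14.3-fold in indica and at least 26.7-fold in japonica (adjusted p = 0.0324). The call was lost with a pseudocount of 1 (adjusted p = 0.0561), with eBayes trend and robust (0.756) and on deposited values (0.0775). The other 22 tested probe sets of aquaporins were not called. Over the list of 23 the median difference was -0.05 in indica and 0.08 in japonica, close to the medians of all tested probe sets. At the 0.385% of all tested, no call among 22 is what the array as a whole would give.

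HXK6 (LOC4338010), a hexokinase gene that the reference table also names HXK7, had the smallest spread between backgrounds of the 32 named genes that fell. The name HXK6 is listed for another gene too, so the LOC number identifies the gene meant here. LOC4338010 had 179.8 in AnS-1 and 144 in Os02g12290iL1, against 1539 in AnN and 1264 in ZH11. Its differences were -2.99 and -3.0, with a mean of -2.99 ± 0.01 (SD, n = 2; adjusted p = 0.00225, limma). Hexokinases phosphorylate glucose as the first step of its use. It was the 1 called probe set of 46 in the list of sugar metabolism and transport (2.17%, against 0.385% of all tested). The medians of that list were -0.06 in indica and -0.04 in japonica. A single call does not set a list apart from the array, here or in the lists below.

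CHS (LOC4350636), assigned to chalcone synthase, which opens the flavonoid pathway, had 171 in AnS-1 and 118 in Os02g12290iL1, against 1412 in AnN and 1940.1 in ZH11. The fall was 7.63-fold in indica and at least 16.3-fold in japonica (adjusted p = 0.0142, and 0.0597 with eBayes trend and robust). The other 2 tested probe sets of the same gene differed by between -0.10 and 0.18 and were not called, so the gene's probe sets disagreed. CHS was the 1 call among 22 probe sets of phenylpropanoid and flavonoid genes (4.55%, against 0.385% of all tested). The list medians were -0.22 in indica and -0.05 in japonica.

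KPHMT1 (LOC4326739), a ketopantoate hydroxymethyltransferase of the pathway to pantothenate and coenzyme A, had 193 in AnS-1 and 133 in Os02g12290iL1, against 863 in AnN and 877 in ZH11. This was a fall of 4.20-fold in indica and 5.98-fold in japonica (adjusted p = 0.0130). RR9 (LOC4349747), a type-A response regulator of cytokinin signalling, stayed well over the controls in all panicles. It had 303 in AnS-1 and 629 in Os02g12290iL1, against 841 in AnN and 1554 in ZH11 (adjusted p = 0.0211, and 0.0655 on deposited values). It was the 1 call among 83 probe sets of hormone genes (1.2%, against 0.385% of all tested).

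HMA5 (LOC4336625), a heavy metal transporting P-type ATPase linked to copper, had 65.8 in AnS-1 and 82.4 in Os02g12290iL1, against 183 in AnN and 233 in ZH11 (adjusted p = 0.0209). It was the 1 call among 73 transporter probe sets (1.37%, against 0.385% of all tested). Both tms5 values of HMA5 lay under the control level. JAMYB (LOC4351131), a MYB transcription factor induced by jasmonate, had 280.4 in AnS-1 and 77.9 in Os02g12290iL1, against 668 in AnN and 175 in ZH11 (adjusted p = 0.0431). Its value in Os02g12290iL1 lay under the control level. The intensity in AnS-1 was above that in ZH11, so for JAMYB the groups overlapped, and the call came from the differences within backgrounds. It was lost with a pseudocount of 64 (adjusted p = 0.119) and on deposited values (adjusted p = 0.126). JAMYB was the 1 call among 73 probe sets of transcription factors (1.37%, against 0.385% of all tested).

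**Figure D2:**
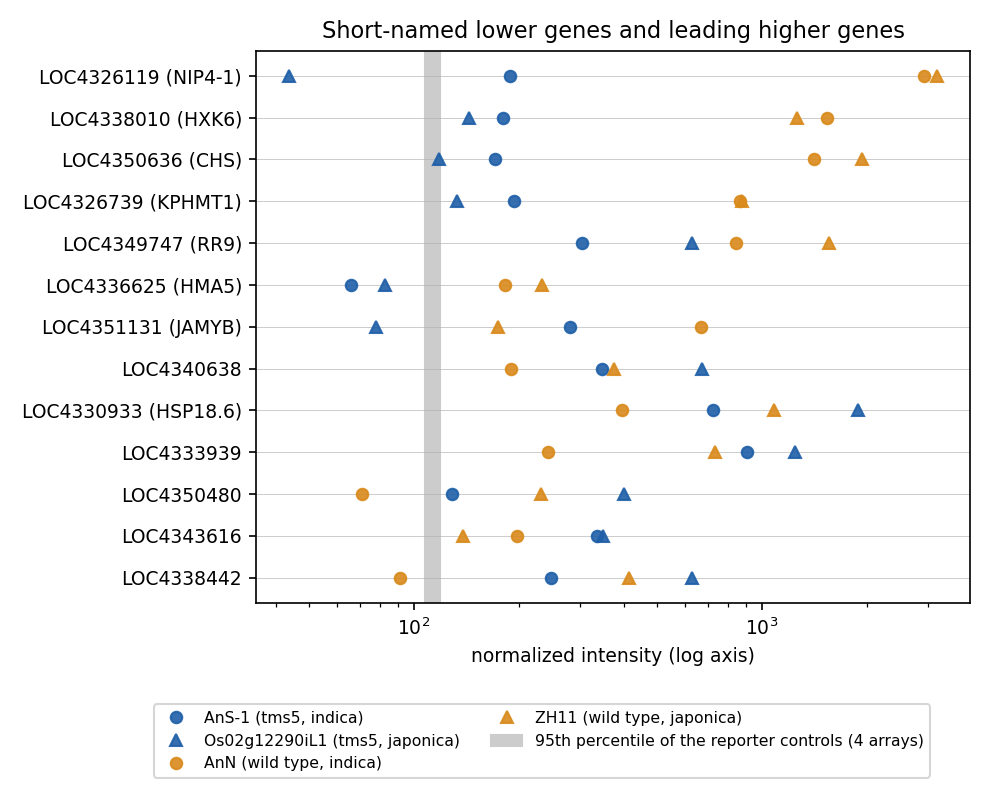
Normalized intensity (x, log axis) at high temperature of the 7 short-named genes that fell outside the tapetum list (upper rows, NIP4-1 to JAMYB) and of 6 genes that were higher in both tms5 lines without passing the test (lower rows). Blue symbols are the tms5 lines and orange symbols the wild types, circles indica and triangles japonica; gaps are wide for NIP4-1, HXK6 and CHS and narrow for the higher genes, and the grey band is the control level of the 4 arrays.

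Among tapetum and pollen wall genes 4 of 11 tested probe sets fell (36.4%, against 0.385% of all tested), and this list was drawn up with earlier results of these data known. CYP703A3 (LOC4344594), a cytochrome P450 that hydroxylates fatty acids for the pollen wall, had 573 in AnS-1 and 668 in Os02g12290iL1, against 3647 in AnN and 5733 in ZH11 (adjusted p = 0.00613). C6 (LOC4350790), a lipid transfer protein of the tapetum, CP1 (LOC4337353), a cysteine protease, and PTC1 (LOC4347213), a PHD-finger regulator of the tapetum, fell with adjusted p of 0.0191, 0.0218 and 0.0226. C6 lost its call with eBayes trend and robust (adjusted p = 0.278) and on deposited values (0.0592), CP1 with a pseudocount of 64 (0.0580) and PTC1 on deposited values (0.0843). The list's median difference was -0.71 in indica and -0.59 in japonica, and 9 of the 11 were lower in both lines, against 20.4% of all tested. Its summed intensity was 18893 in AnS-1 and 30797 in Os02g12290iL1, against 32957 in AnN and 47399 in ZH11. No marker was under the control level in all 4 panicles, and CP1 was under it in both tms5 lines. The tapetum regulators TDR and TIP2, chosen after their values were seen, had 1983 and 1502.5 in AnS-1 and 4260.0 and 3576 in Os02g12290iL1, against 2346 and 1167 in AnN and 4488 and 3871 in ZH11, and were not called. The tapetum list moved with the genes above, and its part in their fall was not tested.

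Markers of the other tissues gave no call, which at the 0.385% of all tested is what the array as a whole would give for lists this short. Among 8 meiocyte probe sets the medians were 0.07 in indica and -0.15 in japonica. MEL1 (LOC4334449), an Argonaute protein of germ cells, had 1029 in AnS-1 and 1910.3 in Os02g12290iL1, against 556 in AnN and 1526 in ZH11 (adjusted p = 0.562), and the difference of PAIR1 (LOC4331321), needed for pairing of homologous chromosomes, was 0.07 in indica and 0.36 in japonica. Green tissue genes had medians of -0.05 in both backgrounds. There PSAG (LOC4337812), a photosystem I subunit, differed by -0.42 and -0.52, and RBCS (LOC4351966), the small subunit of Rubisco, by 0.14 and 0.13. Floral organ identity genes had a median of 0.0035 in indica and -0.06 in japonica. MADS3 (LOC9271572), a stamen identity gene, differed by -0.23 and -0.33. LOC4343851, which entered the list under the name MADS2, differed by 0.09 and 0.15. It is also named FDRMADS7, MADS18 and MADS28, so its place among floral organ identity genes is uncertain.

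In lists of other functions, which at the 0.385% of all tested would hold under 1 call each, no probe set was called among 16 for lipids, 7 for glutathione enzymes, 56 for heat shock, 20 for protein turnover, 41 for ribosomal proteins, 51 for the cell wall and 58 for the cell cycle. List medians of these 7 lists lay between -0.27 for glutathione enzymes in indica and 0.17 for lipids in japonica. The medians of ribosomal protein genes were 0.10 in indica and 0.02 in japonica, and RPS10-1 (LOC4329619) and RPS21 (LOC4332813) differed by at most 0.22 in a background. In protein turnover RPN5 (LOC4334802) and RPT5A (LOC4331050), both subunits of the 26S proteasome, differed by between -0.12 and 0.07.

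Some members of these lists were lower in both lines without passing. BIP4 (LOC4338866), an Hsp70 chaperone of the endoplasmic reticulum by its name, had 55.8 in AnS-1 and 85.6 in Os02g12290iL1, against 140.2 in AnN and 301 in ZH11 (adjusted p = 0.0614). Both tms5 values of BIP4 lay under the control level. HSF11 (LOC4334080), a heat stress factor, differed by -1.62 and -0.88 (adjusted p = 0.164), and of the 4 panicles only AnN was above the control level. Its japonica difference is thus of dim values, from a probe set of a type that can bind several transcripts. PLA2-II (LOC4332319), a phospholipase A2, had 249.7 in AnS-1 and 199 in Os02g12290iL1, against 742 in AnN and 1878 in ZH11 (adjusted p = 0.189). LOX1.1 (LOC4334049), a lipoxygenase, differed by -0.44 and -1.76. CYCB1-1 (LOC4326914), a B-type mitotic cyclin, had 119.7 in AnS-1 and 197 in Os02g12290iL1, against 309 in AnN and 1041 in ZH11 (adjusted p = 0.128). CYCA3-2 (LOC4352642), an A-type cyclin, differed by 0.43 and 0.36 (adjusted p = 0.549). Among cell wall genes EXPB11 (LOC4330213), a beta-expansin, differed by 0.40 and 0.51, and CSLE2 (LOC4330583), a cellulose synthase-like gene, by -0.49 and -0.34. The glutathione S-transferase genes GSTU6 (LOC4349207) and GST1 (LOC4334347) differed by -0.51 and -0.61, and by -0.41 and -1.72.

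**Figure D3:**
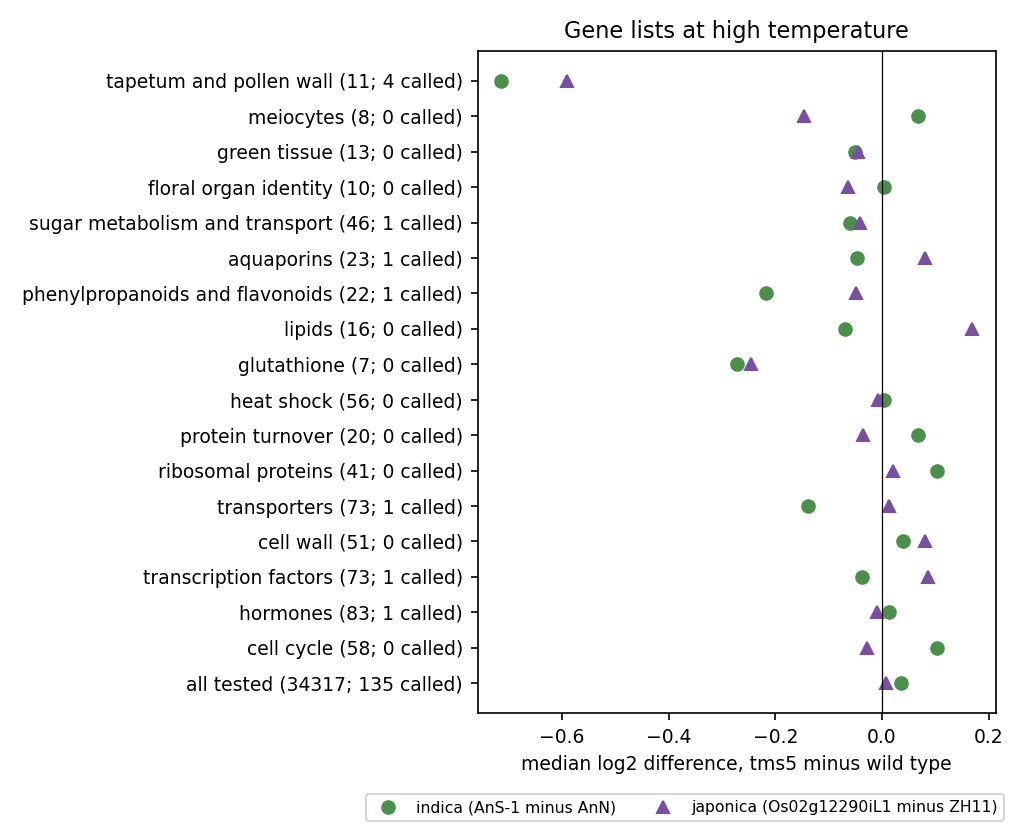
Median difference in log2(intensity + 16) at high temperature of 17 gene lists and of all tested probe sets, with green circles for indica (AnS-1 minus AnN) and purple triangles for japonica (Os02g12290iL1 minus ZH11); row labels give the number of tested probe sets and of those called. The tapetum and pollen wall list lies at -0.71 and -0.59, and the other 16 lists lie between -0.27 and 0.17.

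The 3 probe sets that rose had no gene listed. The first by the size of the smaller difference had 460.0 in AnS-1 and 528 in Os02g12290iL1, against 99.4 in AnN and 172 in ZH11 (adjusted p = 0.0269). The last had 570.2 in AnS-1 and 1071 in Os02g12290iL1, against 145 in AnN and 418 in ZH11 (adjusted p = 0.0431). The groups did not overlap for either of them, but both were chosen for being higher, and the share over all tested probe sets was not taken. The first was of a type that can bind several transcripts. The first and the second bear probe set names with the same stem, so the 3 may not be separate transcripts. Of the 49 probe sets with no gene that fell, the one with the largest joint fall had 408 in AnS-1 and 364 in Os02g12290iL1, against 6432 in AnN and 4847 in ZH11 (adjusted p = 0.00225).

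No gene with an assignment rose. At least 1.5-fold higher in both tms5 lines without passing were 6 genes, with adjusted p between 0.0875 and 0.324 (limma). HSP18.6 (LOC4330933), a small heat shock protein, had 722 in AnS-1 and 1882 in Os02g12290iL1, against 396 in AnN and 1085 in ZH11 (adjusted p = 0.0902). The groups overlapped, since ZH11 lay above AnS-1. LOC4340638 had 348 in AnS-1 and 673 in Os02g12290iL1, against 189.8 in AnN and 376 in ZH11, with differences of 0.82 and 0.81. LOC4333939 differed by 1.83 in indica and 0.75 in japonica, LOC4343616 by 0.73 and 1.25, LOC4338442 by 1.30 and 0.59, and LOC4350480 by 0.73 and 0.75.

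The panicles grown at 23 °C were not used to choose the probe sets that fell, although the mean over all arrays set which probe sets were tested. In japonica Os02g12290iL1 was below ZH11 by at least 2-fold for 60 of the 132 at 23 °C as well, where 0.816% of all tested probe sets were. The median difference of the 132 there was -0.92, and that of all tested probe sets 0.02. In indica AnS-1 was below AnN by at least 2-fold for 30 of the 132 at 23 °C, where 3.73% of all tested were, and the median was -0.32. In both backgrounds 4 of the 132 were at least 2-fold lower at 23 °C, where 0.347% of all tested were so and 0.0175% were higher in both. The 132 were chosen by their falls on the 28 °C arrays, which favours smaller differences on any other arrays. The difference was smaller in size at 23 °C than at 28 °C, or turned, for 126 of the 132 in each background. The share over all tested probe sets was not taken. The test of that change, the interaction of genotype and temperature on all 8 arrays, called 0 probe sets (limma, smallest adjusted p 0.513), with 1371 at an unadjusted p under 0.05.

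LOC4336712, the first of the named genes, is an example. At 23 °C it had 31.0 in AnS-1 and 136 in Os02g12290iL1, against 42.6 in AnN and 1836 in ZH11. The japonica difference was -3.61, while both indica panicles lay under the control level of their arrays. LOC107278020 likewise had 44.5 in AnS-1 and 57.95 in Os02g12290iL1, against 44.5 in AnN and 901 in ZH11 at that temperature. RR9, by contrast, had 759 and 1278 in AnS-1 and Os02g12290iL1, against 749 and 1674 in AnN and ZH11 at 23 °C, so its 2 indica panicles were nearly equal there.

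The level of these genes in AnN at 23 °C bears on what indica could show. There 61 of the 132 probe sets, and 16 of the 25 named LOC genes, were at or under the control level in AnN, against 9 and 0 in ZH11. Over all tested probe sets the shares were 30.6% in AnN and 27.8% in ZH11. Among the 71 that lay above it in AnN, 25 were at least 2-fold lower in AnS-1, and among all tested probe sets above it 4.98% were. In japonica this was 57 of 123, against 1.06% of those tested.

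The wild types also differed in their own contrast of 28 °C with 23 °C, which shares its 28 °C arrays with the comparison above. The deposited values of the indica arrays lay on different scales at 23 °C and 28 °C, while the japonica arrays shared a scale. Even after quantile normalization, a change with temperature in AnN can therefore not be told apart from this difference between arrays. AnN was at least 2-fold higher at 28 °C than at 23 °C for 100 of the 132 probe sets and for all 25 named LOC genes, where 10.7% of all tested probe sets were. ZH11 was so for 3 of the 132 and 1 of the 25, where 0.42% of all tested were. The median difference of the 25, 28 °C minus 23 °C, was 3.82 in AnN, -0.03 in ZH11 and -2.83 in Os02g12290iL1. Over all tested probe sets these medians were -0.10, -0.0018 and -0.0058. The 25 were chosen for low tms5 and high wild type values on the same 28 °C arrays. That choice favours a negative difference in Os02g12290iL1 and a positive one in the wild types, so no conclusion is drawn from these medians.

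**Figure D4:**
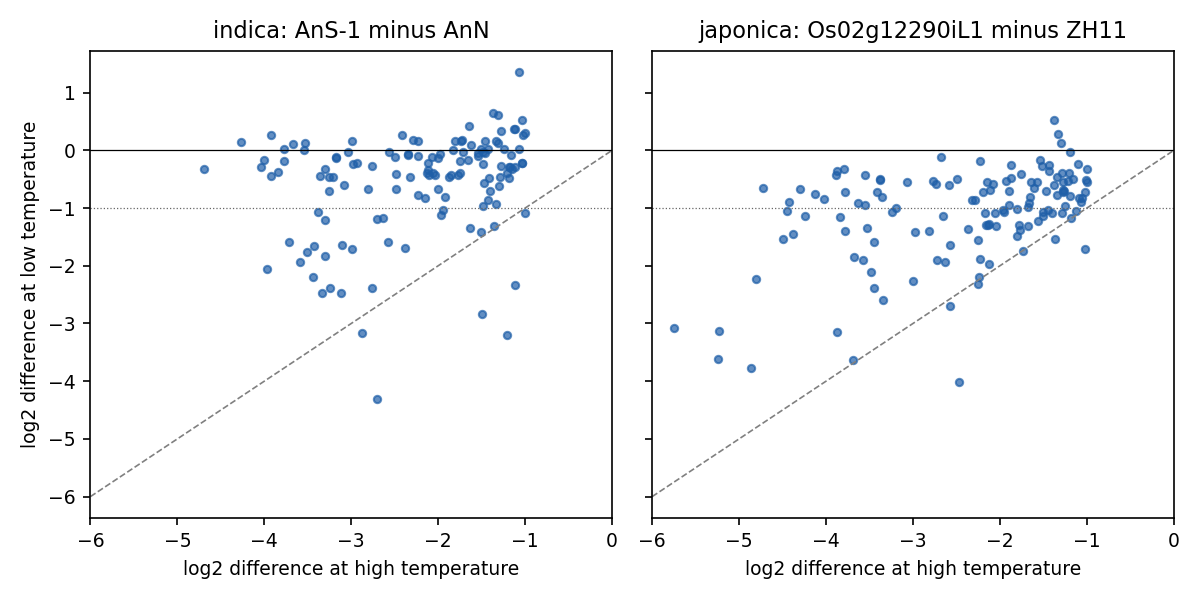
Differences (tms5 minus wild type, log2) of the 132 probe sets that fell, at high temperature (x) and low temperature (y), for indica on the left and japonica on the right. The dashed line marks equal differences and the dotted line a 2-fold difference; in indica most points lie near 0 on the y axis, and in japonica most lie below 0 with a median of -0.92.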

How the data were processed

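Total RNA of young panicles was hybridised to 8 arrays, and the 4 from 28 °C were compared here. For each array the authors deposited 1 intensity a probe set. The submitters' processing notes name the programs Affymetrix Expression Console and RMA. Versions are not given in the sources used here. The values are linear although RMA usually gives log2, and the unit was judged by their range. Their quantiles fell on 3 scales (indica low, indica high, japonica), and all 8 columns were therefore quantile normalized together. 0 columns were unused.

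The 64 reporter control probe sets were left out, and the upper 60% of 57194 by mean log2(intensity + 16) over 8 arrays, 34317 probe sets, were tested. The pseudocount of 16 understates changes of dim probe sets. The platform's probe annotation lists a single gene for 22436 probe sets (17905 genes), all found in the RefSeq rice gene table (assembly ASM3414082v1), which was used for names and gene order alone. Printed folds of called genes with a tms5 level under the 95th percentile of 62 controls (the 2 bright in Os02g12290iL1 left out) were given as bounds. Differences in log2 were not bounded.

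limma 3.58.1 in R 4.3.3 was fitted with background as a block (1 residual and 4.02 prior degrees of freedom), two-sided, with Benjamini-Hochberg adjustment over all tested probe sets, and was tested on simulated data. Members, lists and the choice of 4 arrays were made with earlier results of these data known, including that the fit to 8 arrays calls 0. Replicates pair by background, as the labels give it. Named were the 25 called genes with no short name and up to 12 with one that had the largest smaller difference of the 2 backgrounds, higher ones up to 8 (those not passing from 1.5-fold), and up to 4 members a list, or 2 where none passed. Alternatives were other fits, filters, pseudocounts, normalizations, thresholds and leaving out arrays. Protein and promoter sequences were not used here.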

Additional observations from a re-analysis of the deposited data

Results flagged for a closer look

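The pair of reporter control probe sets lay outside the comparisons. At 28 °C their intensities in Os02g12290iL1 were 2836 and 3222, and at 23 °C 2281 and 3075. In the other lines they lay between 18.5 and 76.1, under the control level.

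Of 15 probe sets at least 2-fold changed in opposite directions at 28 °C, all 15 were below AnN in AnS-1 and above ZH11 in Os02g12290iL1, and 3 had a gene with a short name. This difference between backgrounds was not tested, as each background had 1 array a side. AMY1.3 (LOC4345814), an alpha-amylase, had 89.8 in AnS-1 and 370.2 in Os02g12290iL1, against 776 in AnN and 118 in ZH11, with differences of -2.90 and 1.53. PDC (LOC4339066), a pyruvate decarboxylase, had 151 in AnS-1 and 506 in Os02g12290iL1, against 740.2 in AnN and 90.1 in ZH11, with differences of -2.18 and 2.30. CH6 (LOC4342114), a chitinase, had 59.9 in AnS-1 and 446 in Os02g12290iL1, against 155 in AnN and 184 in ZH11, with differences of -1.17 and 1.204.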

How the results depend on the processing

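The count of 135 called probe sets depended on the fit. It was 0 on all 8 arrays with background as a block, 3 with the array set as a block, 0 without a background block and 0 in each fit to all 8 arrays that left out 1 of the 4 panicles. These fits to all 8 arrays take the spread from other arrays and other residual degrees of freedom. The count was 238 (234 lower) with median centring, 203 (198 lower) with eBayes trend and robust, 194 (189 lower) with no filter and 87 (87 lower) on deposited values without normalization, the last added after seeing the data. Of the 135, 135 were shared with median centring, 135 with no filter, 118 with trend and robust and 87 with the deposited values. Of the 32 named genes that fell, 0 passed on all 8 arrays with the background block, 1 with the array set block, 0 without a block and 0 with an array left out. The 10 called list members became 5 on the deposited values. At least 2-fold lower in both were 167, against 339 at 1.5-fold and 90 at 3-fold, and 339 to 355 when a single background was used. Higher in both were 3, against 14 at 1.5-fold and 0 at 3-fold, and 29 to 201 in a single background. Uncalled list members changed sign in fits that left out an array. PAIR1 reached -0.19, LOC4343851 (listed as MADS2) -0.019 and -0.062, LOX1.1 0.22, RPN5 -0.047 and -0.062, RPT5A 0.0048 and 0.059, RPS10-1 -0.11 and -0.066, and CYCA3-2 -0.029. The cause was not tested. Dim tms5 values limit the size of 45 falls in both backgrounds, and 1 array a line limits all of them.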
